A study of Mus musculus with 9 samples.

Results

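The goblet cell and mucus genes are a set of 10 genes, *Muc2*, *Fcgbp*, *Clca1*, *Zg16*, *Tff3*, *Spink4*, *Agr2*, *Klk1*, *Muc13* and *Muc3*. They were chosen by symbol and matched through their Ensembl identifiers to 10 of the 54838 genes with a value in each RNA-seq library. All 10 reached 1 FPKM in at least 2 libraries and were tested with the other genes that did so, 12702 in all. FPKM scales the fragments of a gene by transcript length and by the mapped fragments of the library. It does not correct for differences in composition between libraries. The median log2(FPKM + 1) of the genes tested ran from 2.617 to 2.887 between libraries, so small differences between them depend on the scaling.

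The libraries came from mouse small intestinal organoids, whose crypt donors were C57BL/6 mice (per the labels) of the genotype *Vil-CreERT2*;*Mettl3* fl/fl. Organoids received ethanol (EtOH, the solvent) or 500 nM 4-hydroxytamoxifen (4-OHT) for 2 days, with DMSO or necrostatin-1 (Nec-1, an inhibitor of the kinase RIPK1) for 5 days. The groups EtOH DMSO, 4-OHT DMSO and EtOH Nec-1 had 2 libraries each, and the group 4-OHT Nec-1 had 1. Every organoid, controls included, carried the floxed *Mettl3* alleles and a tamoxifen-dependent Cre recombinase under the villin promoter, which is active in epithelial cells. *Mettl3* encodes the catalytic subunit of the m6A RNA methyltransferase, and 4-OHT is meant to delete it. No Cre-free organoids received 4-OHT, so 4-OHT and the deletion cannot be told apart. The sources used here do not say whether libraries of a group were separate cultures, and p-values then measure only the spread between these libraries, which may be technical.

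Goblet cells are the mucus-secreting cells of the intestinal epithelium. They pack a gel-forming mucin, MUC2, into granules together with smaller proteins that bind or modify it, and the released gel keeps bacteria away from the cells. Membrane-bound mucins such as MUC13 and MUC3 sit on the apical surface of enterocytes and form the glycocalyx beneath that gel.

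Among the members, the genes of the secreted gel lie apart from each other in the mouse genome (GRCm38.p6, the assembly of the RefSeq table used here). *Muc2* (ENSMUSG00000025515) spans chr7:141690340-141754691, and *Fcgbp* (ENSMUSG00000047730) and *Zg16* (ENSMUSG00000049350) lie on the same chromosome at chr7:28071236-28120864 and chr7:127050156-127052675. *Klk1* (ENSMUSG00000063903) is also on chromosome 7, at chr7:44225360-44229622. *Clca1* (ENSMUSG00000028255) lies at chr3:145004537-145032776 and *Spink4* (ENSMUSG00000028415) at chr4:40920056-40931395. *Tff3* (ENSMUSG00000024029) spans chr17:31125306-31129611, and *Agr2* (ENSMUSG00000020581) spans chr12:35992925-36004081. The membrane mucin genes are *Muc13* (ENSMUSG00000022824) at chr16:33794037-33819929 and *Muc3* (ENSMUSG00000037390) at chr5:137134924-137166048.

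RefSeq promoter windows of 300 bases, from 250 before to 50 after a gene's start, were found for 6 of the 10 members, in 7 windows because *Muc13* has 2 starts. The 250 bases upstream of *Muc2*, *Agr2* and *Muc3* are printed because these members rose in the libraries labelled 4-OHT DMSO under each processing tried, and those of both *Muc13* starts because *Muc13* did not pass the test. Each runs 5′ to 3′ on the gene's strand (GRCm38.p6), from chr7:141690090-141690339 (plus strand) for *Muc2*, chr12:35992675-35992924 (plus) for *Agr2*, chr5:137166047-137166296 (minus) for *Muc3*, and chr16:33793787-33794036 and chr16:33794239-33794488 (both plus) for *Muc13*. Capitals mark the motifs searched.
Muc2: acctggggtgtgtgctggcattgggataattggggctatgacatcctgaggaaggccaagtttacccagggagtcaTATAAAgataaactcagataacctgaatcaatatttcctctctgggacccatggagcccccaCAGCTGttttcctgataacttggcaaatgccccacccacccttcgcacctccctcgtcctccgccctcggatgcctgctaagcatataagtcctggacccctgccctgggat
Agr2: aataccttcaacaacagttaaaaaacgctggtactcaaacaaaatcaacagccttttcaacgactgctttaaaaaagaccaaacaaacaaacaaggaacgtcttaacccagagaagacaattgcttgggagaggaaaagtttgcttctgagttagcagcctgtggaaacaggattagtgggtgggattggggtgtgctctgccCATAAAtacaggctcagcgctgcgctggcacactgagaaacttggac
Muc3: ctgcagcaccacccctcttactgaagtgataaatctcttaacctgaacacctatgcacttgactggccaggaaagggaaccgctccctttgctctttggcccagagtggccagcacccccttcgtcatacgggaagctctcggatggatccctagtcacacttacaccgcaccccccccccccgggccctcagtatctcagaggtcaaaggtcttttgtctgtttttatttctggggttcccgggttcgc
Muc13, first start: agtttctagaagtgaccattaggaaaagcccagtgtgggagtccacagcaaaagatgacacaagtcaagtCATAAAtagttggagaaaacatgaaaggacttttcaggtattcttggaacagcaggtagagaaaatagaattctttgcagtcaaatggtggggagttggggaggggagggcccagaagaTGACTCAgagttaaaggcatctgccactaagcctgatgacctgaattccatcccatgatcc
Muc13, second start: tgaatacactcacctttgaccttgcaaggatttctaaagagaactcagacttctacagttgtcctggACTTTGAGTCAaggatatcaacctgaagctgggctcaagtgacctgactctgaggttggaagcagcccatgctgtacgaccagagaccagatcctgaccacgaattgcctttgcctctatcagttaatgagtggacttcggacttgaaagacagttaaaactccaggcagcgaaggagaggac
The search on both strands covered 7 motifs. One was TATAAA, the TATA box near which transcription can start. The E-box of the type bound by ATOH1, the secretory lineage factor, was written as CAGCTG. Forkhead factors of the FOXA family were given TGTTTAC as their letters. For AP-1, the dimer of FOS and JUN proteins, the letters were TGACTCA on either strand. The nuclear receptor HNF4 had the core CAAAGT, and the intestinal CDX factors had TTTATG in this search. The interferon-stimulated response element was searched as well. The E-box was found at position -112 of *Muc2* and -208 of *Fcgbp*, where 16.3% of 32851 windows of the same length hold one. *Muc2* also had TATAAA at -174, found in 13.6% of windows. TGACTCA, present in 5.2% of windows, was found at both *Muc13* starts, at -61 and -179. At the second *Muc13* start it overlaps a CAAAGT at -183 (14.4% of windows). TTTATG (11.9% of windows) was found at -47 of *Agr2* and at -180 of the first *Muc13* start. The FOXA and interferon motifs, in 3.65% and 3.44% of windows, were not found in any member's window, and neither *Muc3* nor *Klk1* held any of the 7. These matches are descriptions of the sequence only.

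FPKM summed to between 450207 and 498712 per library, 11559 to 12038 genes per library reached 1 FPKM, and the fragment counts behind single values are unknown. *Mettl3* itself was at 2.70 and 2.71 FPKM in EtOH DMSO and at 3.72 and 4.14 in 4-OHT DMSO. It passed the test as higher in the libraries labelled 4-OHT DMSO (log2 fold change 0.41, SE 0.10, limma adjusted p = 0.0231), a call held in 8 of 16 alternative fits and lost without any 1 of the 4 EtOH libraries or without the second 4-OHT DMSO library (adjusted p up to 0.0914). FPKM covers the whole gene, so excision cannot be read from it, and every direction below between EtOH and 4-OHT rests on the labels. Of the markers of other tissues, 0 of 5 fibroblast genes and 1 of 6 immune genes (*Itgam*) reached 1 FPKM, and the defining goblet cell markers were present in every library.

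In control organoids without inhibitor (EtOH DMSO) the members covered a wide range of levels. *Tff3*, a trefoil peptide that is secreted with the mucin, was highest with a mean of 994 ± 69.2 FPKM (SD, n = 2), followed by *Spink4*, a small protease-inhibitor-like peptide of goblet cells, with 696 ± 73 (SD, n = 2). *Muc13* (271 ± 7.38 FPKM, SD, n = 2) and *Agr2* (188 ± 14.2, SD, n = 2) came next. *Fcgbp* and *Zg16*, with means of 71.6 and 64.2 FPKM, overlapped between libraries, while all other neighbours in the order did not. *Clca1*, *Klk1*, *Muc3* and *Muc2* closed the order with means of 30.9, 26.1, 24.1 and 18.9 FPKM. The members together made up 0.51% and 0.519% of the summed FPKM of the EtOH DMSO libraries.

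**Figure D1:**
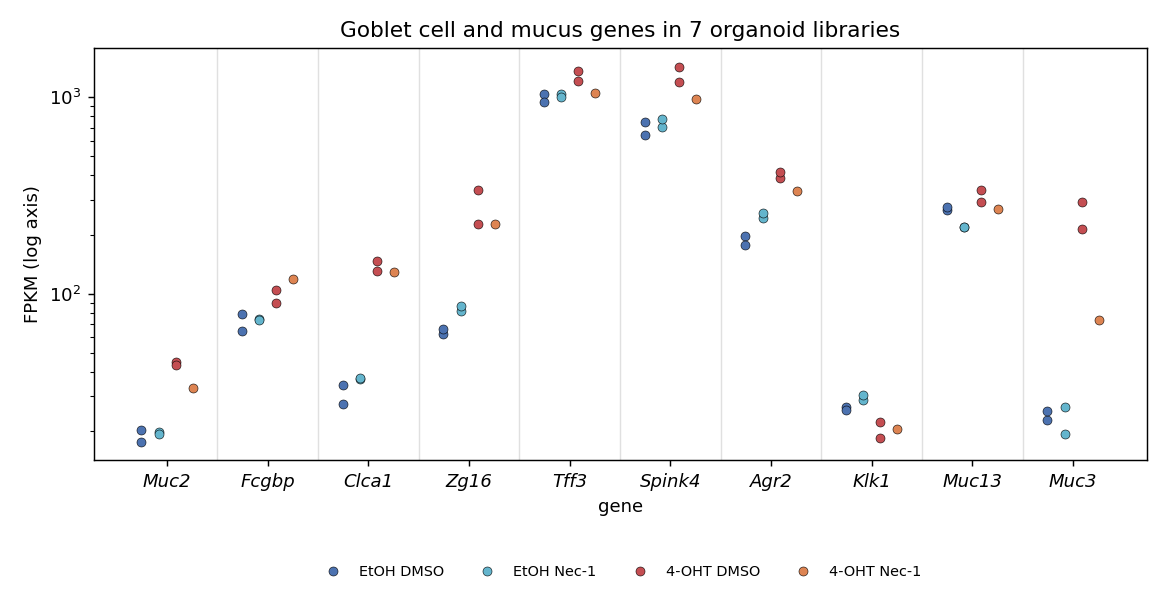
FPKM (log axis) of the 10 goblet cell and mucus genes, with 1 point per library and a colour per group (1 library of 4-OHT Nec-1 and 2 of every other group). In every member other than *Klk1* both 4-OHT DMSO points lie above all EtOH points. In *Muc3* the 4-OHT Nec-1 point, at 73.2 FPKM, lies between the EtOH and the 4-OHT DMSO points, as it does in *Muc2*, *Tff3*, *Clca1*, *Agr2* and *Spink4*.

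The first comparison asks how the goblet cell and mucus genes differed between organoids labelled 4-OHT and controls without Nec-1. Of the 10 members, 8 were higher in 4-OHT DMSO and 1 was lower by limma with Benjamini-Hochberg adjustment over all genes (adjusted p under 0.05), where 24.5% of all genes tested were higher and 16.7% lower, 41.2% in all. With each library centred on its median, the 3117 higher and 2120 lower genes became 2213 and 3187. The members' median log2 fold change was 1.00, and that of all genes was 0.077. Fold changes are on the log2(FPKM + 1) scale, which understates the change of low genes. The rises differed widely in size, from 10.5-fold in mean FPKM for *Muc3* to 1.35-fold for *Fcgbp* and 1.29-fold for *Tff3*. In bulk libraries, a change in the number of cells of a type and a change in RNA per cell cannot be told apart.

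The gel-forming mucin *Muc2* was at 17.6 and 20.2 FPKM in EtOH DMSO and at 44.9 and 43.2 in 4-OHT DMSO, so that the groups did not overlap. It rose 2.33-fold in mean FPKM, a log2 fold change of 1.18 (SE 0.09, limma adjusted p = 0.000885). *Clca1*, a secreted metalloprotease of the mucus that cleaves MUC2, was at 27.5 and 34.4 FPKM in EtOH DMSO and at 131 and 147 in 4-OHT DMSO. Its log2 fold change of 2.14 (SE 0.13, limma adjusted p = 0.000482) was the largest among the secreted proteins of the list, close to that of *Zg16*. *Zg16*, a lectin of the mucus that binds Gram-positive bacteria, went from 62.1 and 66.3 FPKM to 227 and 339. Its 4-OHT DMSO libraries lay far apart from each other, and both lay above all EtOH libraries (log2 fold change 2.09, SE 0.19, limma adjusted p = 0.00134). *Fcgbp* encodes the IgG Fc-binding protein, which is joined to the MUC2 network. It was at 64.4 and 78.9 FPKM in EtOH DMSO and 89.4 and 104 in 4-OHT DMSO, a log2 fold change of 0.43 (SE 0.13, limma adjusted p = 0.0451).

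*Agr2*, a protein disulfide isomerase of the endoplasmic reticulum needed for MUC2 assembly, was at 198 and 178 FPKM in EtOH DMSO and at 388 and 414 in 4-OHT DMSO. It rose 2.14-fold in mean FPKM, by 1.10 on the log2 scale (SE 0.09, limma adjusted p = 0.00113). *Spink4* rose from 748 and 645 FPKM to 1191 and 1434 (log2 fold change 0.91, SE 0.14, limma adjusted p = 0.00551). These levels placed *Spink4* next to *Tff3*, and the 2 genes overlapped in 4-OHT DMSO whereas *Tff3* was the higher in EtOH DMSO. *Tff3* itself was at 1043 and 945 FPKM in EtOH DMSO and at 1211 and 1354 in 4-OHT DMSO, a 1.29-fold difference of means (log2 fold change 0.37, SE 0.11, limma adjusted p = 0.0413). *Klk1*, a tissue kallikrein and serine protease, was the 1 member that fell, from 26.6 and 25.6 FPKM to 18.3 and 22.2 (log2 fold change -0.36, SE 0.11, limma adjusted p = 0.0497).

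The membrane mucins parted from each other. *Muc3* was at 22.8 and 25.4 FPKM in EtOH DMSO and at 213 and 292 in 4-OHT DMSO, the largest difference in the set, 10.5-fold in mean FPKM and 3.32 on the log2 scale (SE 0.21, limma adjusted p = 0.000507). It moved from the second-lowest level of the 10 members in EtOH DMSO into the range of *Zg16*, and both of its 4-OHT DMSO values stayed below those of *Muc13*. The neighbouring *Muc3a* (ENSMUSG00000094840, chr5:137208805-137212545), a related gene with which fragments could be shared, was at 9.90 and 10.6 FPKM in EtOH DMSO and 13.7 and 17.1 in 4-OHT DMSO (log2 fold change 0.54, SE 0.12, limma adjusted p = 0.0203). *Muc13* was at 265 and 276 FPKM in EtOH DMSO and at 295 and 336 in 4-OHT DMSO. Its groups did not overlap, but the log2 fold change of 0.22 (SE 0.09) did not pass the test (limma adjusted p = 0.117).

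In 4-OHT DMSO against EtOH DMSO, 9 members had all 4-OHT values above all EtOH values and 1 all below, as 40.7% and 30.8% of all genes tested did. *Muc2*, *Clca1*, *Zg16*, *Agr2*, *Spink4* and *Muc3* kept an adjusted p under 0.05 in all 16 alternative fits without a fold threshold. *Tff3*, *Fcgbp* and *Klk1* were called in 6, 7 and 5 of these 16 fits. With 1 library left out, *Tff3* ran from 0.29 to 0.45 (limma adjusted p from 0.0305 to 0.115), *Fcgbp* from 0.29 to 0.58 (0.0344 to 0.15) and *Klk1* from -0.49 to -0.23 (0.0189 to 0.158). Centring each library on its median shifted the median of all genes by -0.16 and left *Tff3* at 0.21 and *Fcgbp* at 0.28 (limma adjusted p = 0.234 and 0.116), and it gave *Klk1* -0.51 (limma adjusted p = 0.0179). The summed FPKM of the members was 2294 to 2475 in EtOH DMSO and 3808 and 4487 in 4-OHT DMSO.

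**Figure D2:**
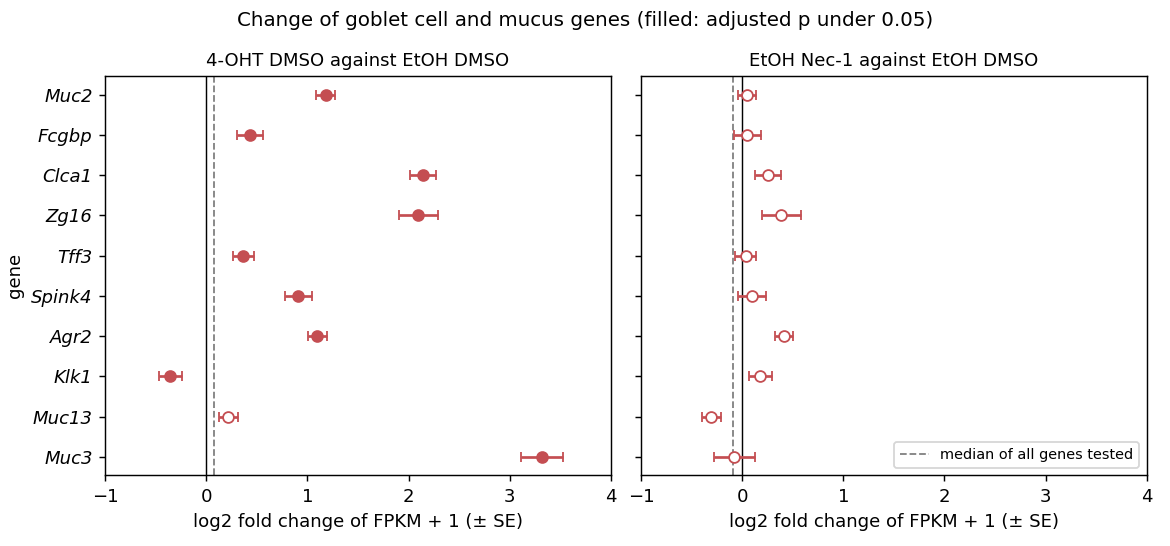
Log2 fold change of FPKM + 1 (point) with its limma standard error (bar) for each member in the 2 comparisons with replicate libraries, with filled points for an adjusted p under 0.05 and a dashed line at the median of all genes tested. On the left 9 members are filled, from -0.36 (*Klk1*) to 3.32 (*Muc3*), and on the right none is, with values from -0.31 (*Muc13*) to 0.41 (*Agr2*).

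The second comparison asks what Nec-1 did in control organoids. None of the 10 members passed the limma test with Benjamini-Hochberg adjustment there (0 higher, 0 lower). Of all genes tested 0.22% passed it, 0.173% higher and 0.0472% lower in EtOH Nec-1. At an unadjusted p under 0.05 there were 2 of 10 members, *Agr2* and *Muc13*, and 1689 of the 12702 genes tested. *Agr2* was at 243 and 257 FPKM with Nec-1, above the 198 and 178 without it (log2 fold change 0.41, SE 0.09, limma adjusted p = 0.218). *Muc13* was at 219 and 218 FPKM with Nec-1, below the 265 and 276 without it (log2 fold change -0.31, SE 0.09, limma adjusted p = 0.306). *Agr2* and *Muc13* therefore changed places in the order of levels, *Muc13* being the higher in EtOH DMSO and *Agr2* in EtOH Nec-1.

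The other members had unadjusted p-values above 0.05 in EtOH Nec-1. *Zg16* was at 81.5 and 87.0 FPKM with Nec-1 (log2 fold change 0.39, SE 0.19, limma adjusted p = 0.452), *Clca1* at 36.6 and 37.1, and *Klk1* at 28.8 and 30.7. With *Agr2* these were the 4 members whose Nec-1 values all lay above the DMSO values, as 10.5% of all genes did, and *Muc13* was the 1 with all values below, as 39.1% did. *Muc2* was at 19.8 and 19.3 FPKM, *Tff3* at 1036 and 1000, *Fcgbp* at 74.4 and 73.3, *Spink4* at 707 and 778, and *Muc3* at 19.4 and 26.6. The groups of these 5 genes overlapped, with log2 fold changes between -0.08 (*Muc3*) and 0.10 (*Spink4*). The median over the members was 0.073, beside -0.094 over all genes. The test of this design had 3 residual degrees of freedom, and a value that misses the threshold does not show that the gene was unaffected.

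The third comparison sets the 1 library labelled 4-OHT Nec-1 against the 2 labelled 4-OHT DMSO, without a test, since there was no replicate. Differences are in log2(FPKM + 1) from the mean of the DMSO libraries, and 12036 genes could be compared. *Muc3* was at 73.2 FPKM, against 213 and 292 in 4-OHT DMSO, a difference of -1.76 (-1.53 and -1.98 against the single libraries). It was the 1 of 10 members at least 1 log2 unit below both, as 1.21% of all genes were, and 0 members lay that far above both (0.764% of all genes). *Muc3* at this level was still above all 4 EtOH libraries.

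Most of the secreted members lay slightly below 4-OHT DMSO. *Muc2* was at 33.2 FPKM with Nec-1 (-0.40), *Spink4* at 981 (-0.41), *Tff3* at 1050 (-0.29) and *Agr2* at 333 (-0.27). *Clca1*, at 130 FPKM, was within 0.10 log2 units of the DMSO mean, and *Muc13*, at 270, differed by -0.22. With *Muc3* these were the 7 members below both DMSO libraries, as 50.6% of all genes were. *Zg16* (227 FPKM, -0.29) and *Klk1* (20.4 FPKM, 0.01) lay between the DMSO libraries. *Fcgbp*, at 119 FPKM, was the 1 member above both (difference 0.30), as 24.5% of all genes were. The members' median difference was -0.276 and that of all genes -0.089. With each library centred on its median, *Clca1* turned to 0.02, and all other members kept their sign.

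The fourth comparison sets the library labelled 4-OHT Nec-1 against the 2 libraries of EtOH Nec-1, over 11746 genes and again without a test. It shares no library with the comparison of 4-OHT DMSO and EtOH DMSO. *Clca1* (130 against 36.6 and 37.1 FPKM, difference 1.79), *Muc3* (73.2 against 19.4 and 26.6, 1.64) and *Zg16* (227 against 81.5 and 87.0, 1.42) lay at least 1 log2 unit above both EtOH Nec-1 libraries. These 3 of 10 members compare with 4.24% of all genes above both by that much, and 0 members lay that far below, with 1.94% of all genes. *Muc2* was higher by 0.73, *Fcgbp* by 0.68, *Agr2* by 0.42, *Spink4* by 0.40, *Muc13* by 0.31 and *Tff3* by 0.05, which turned to -0.09 with median centring. *Klk1* differed by -0.52. By any amount, 9 members lay above both EtOH Nec-1 libraries and 1 below, as 49.9% and 38.8% of all genes did, and the medians were 0.55 for the members and 0.067 for all genes.

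Set side by side, the difference between 4-OHT and EtOH was 2.14 without and 1.79 with Nec-1 for *Clca1*, 2.09 and 1.42 for *Zg16*, and 1.18 and 0.73 for *Muc2*. For *Muc3* it was 3.32 and 1.64, the widest gap of the set. In 3 members the size was larger with Nec-1, *Fcgbp* (0.43 without and 0.68 with Nec-1), *Muc13* (0.22 and 0.31) and *Klk1* (-0.36 and -0.52). The difference between these differences was not tested.

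**Figure D3:**
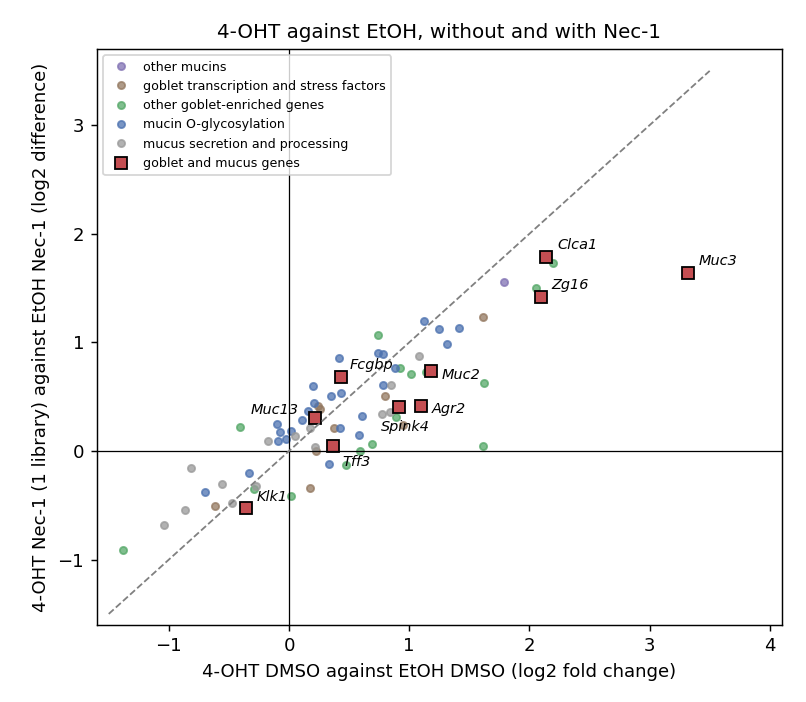
Difference between 4-OHT and EtOH organoids in log2(FPKM + 1) without Nec-1 (x axis, 2 against 2 libraries) and with Nec-1 (y axis, 1 against 2 libraries) for the 10 members (red squares) and the related goblet, mucin, glycosylation and secretion genes (circles), with a dashed line where both are equal. *Muc3* lies furthest below the line (3.32 and 1.64), and *Fcgbp* (0.43 and 0.68) and *Muc13* (0.22 and 0.31) lie above it.

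The factors that direct the goblet lineage were described from a list of 11 genes, of which 10 were tested. In 4-OHT DMSO against EtOH DMSO, 4 were higher and 1 lower, where 24.5% and 16.7% of all genes were, with a median log2 fold change of 0.25. *Foxa1* and *Foxa3*, forkhead factors of the secretory lineage, rose by 1.61 (SE 0.11, limma adjusted p = 0.000687) and 0.80 (SE 0.08, limma adjusted p = 0.00159). *Atoh1*, which commits progenitors to the secretory fate, was at 6.64 and 8.82 FPKM in EtOH DMSO and at 15.9 and 15.6 in 4-OHT DMSO (log2 fold change 0.95, SE 0.14, limma adjusted p = 0.00451). *Spdef*, the factor of goblet cell maturation, was low in every library, at 3.78 and 1.89 FPKM in EtOH DMSO and 2.75 and 4.27 in 4-OHT DMSO. The *Spdef* groups overlapped (log2 fold change 0.26, SE 0.28, limma adjusted p = 0.502), and without the second EtOH DMSO library its value was -0.10. *Creb3l1* was the fourth higher factor (0.38, limma adjusted p = 0.0255), and its call held in 2 of 7 fits with 1 library left out, lost without any 1 library other than the second EtOH DMSO and the 4-OHT Nec-1 library (limma adjusted p up to 0.0885). *Xbp1*, the factor of the unfolded protein response that secretory cells depend on, was the 1 lower, from 76.4 and 79.0 FPKM to 47.6 and 53.4 (log2 fold change -0.61, SE 0.09, limma adjusted p = 0.00464).

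In the library labelled 4-OHT Nec-1, *Atoh1* was at 9.60 FPKM, a difference of -0.66 from 4-OHT DMSO, and *Foxa3* was at 12.6, a difference of -0.35. *Foxa1*, at 15.4 FPKM, was 1.24 above EtOH Nec-1, the 1 factor of the 9 compared that was above both EtOH Nec-1 libraries by 1 log2 unit or more (4.24% of all genes). None of the 10 factors passed the limma test for Nec-1 in EtOH organoids, and 0 had an unadjusted p under 0.05, beside 1689 of the 12702 genes tested.

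Of the other mucin genes, *Muc4*, a membrane mucin, was the 1 of 9 that reached 1 FPKM in 2 or more libraries. All of these were labelled 4-OHT, so *Muc4* entered the test only through the organoids in which it was higher, and its call is tied to that filter. It was at 0.773 and 0.949 FPKM in EtOH DMSO and at 5.62 and 5.26 in 4-OHT DMSO (log2 fold change 1.79, SE 0.11, limma adjusted p = 0.000522). With Nec-1 it was at 0.542 and 0.628 FPKM in EtOH organoids and 3.66 in the library labelled 4-OHT. *Muc15*, *Muc16* and *Muc19* were listed at 0 in every library.

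Of 20 other genes enriched in goblet cells, 17 were tested, and 12 were higher and 1 lower in 4-OHT DMSO (24.5% and 16.7% of all genes), with a median of 0.89. Among the higher genes, *Tff1* and *Fer1l6* were below 1 FPKM in every EtOH library and passed the filter only through libraries labelled 4-OHT. *Ang4*, an antimicrobial ribonuclease that Paneth cells make as well, rose from 297 and 238 FPKM to 1180 and 1269 (log2 fold change 2.20, SE 0.13, limma adjusted p = 0.000493). *Rep15*, a RAB15 effector, rose from 1.16 and 1.12 FPKM to 7.94 and 7.85 (2.06, SE 0.16, limma adjusted p = 0.000914). *Tff1*, a trefoil peptide best known from the stomach, had the largest value, 3.98, with an SE of 1.03 (limma adjusted p = 0.0293). *Tff1* was at 0.712 and 0.505 FPKM in EtOH DMSO, 6.85 in the first and 80.6 in the second 4-OHT DMSO library and 1.12 in 4-OHT Nec-1. Its log2 fold change was 2.29 without the second and 5.67 without the first 4-OHT DMSO library, and its call was lost without either EtOH DMSO or either EtOH Nec-1 library (limma adjusted p up to 0.12). *Scin*, the actin-severing protein scinderin, was the 1 lower (-1.38, SE 0.26, limma adjusted p = 0.0109), at 15.5 and 15.2 FPKM in EtOH DMSO and 7.34 and 3.73 in 4-OHT DMSO. The *Scin* call was lost without either EtOH DMSO library (limma adjusted p up to 0.0605). Nec-1 in organoids labelled 4-OHT left *Tff1* and *Bcas1*, 2 of 18 genes, below both DMSO libraries by 1 log2 unit or more, as 1.21% of all genes were. *Bcas1* was at 3.87 FPKM with Nec-1, against 8.83 and 12.2 in 4-OHT DMSO, a difference of -1.23.

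Mucins carry dense O-linked sugars, built by GALNT enzymes that start the chain and by enzymes that extend, sulfate or fucosylate it. Of 28 such genes tested, 13 were higher and 2 lower in 4-OHT DMSO, as 24.5% and 16.7% of all genes were, with a median of 0.41. The higher genes include *Fut2*, which was below 1 FPKM in every EtOH library and passed the filter only through libraries labelled 4-OHT. *Chst4*, a sulfotransferase, rose from 2.47 and 2.42 FPKM to 8.16 in both libraries (log2 fold change 1.41, SE 0.09, limma adjusted p = 0.000573). *Galnt12*, an initiating enzyme, went from 8.78 and 9.11 FPKM to 24.7 and 22.9, a rise of 1.32 (SE 0.12, limma adjusted p = 0.00125). *B3gnt3*, which extends core 1 chains, rose from 42.8 and 47.1 to 108 and 107 FPKM (log2 fold change 1.24, SE 0.08, limma adjusted p = 0.000546). *B4galnt2* (-0.70) and *Galnt10* (-0.33) were the 2 that fell, and their calls held in 3 and 2 of 7 fits with 1 library left out. Both were lost without either EtOH Nec-1 or either 4-OHT DMSO library, and *Galnt10* also without the second EtOH DMSO library (limma adjusted p up to 0.0943 for *B4galnt2* and 0.122 for *Galnt10*). Without the second EtOH DMSO library *B4galnt2* was at -0.40 on the log2 scale. Above both EtOH Nec-1 libraries by 1 log2 unit or more were 3 of 26 genes in the 4-OHT Nec-1 library (4.24% of all genes), *Slc35a2* (1.19), *Chst4* (1.14) and *B3gnt3* (1.13).

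Of 15 genes of mucus secretion and processing tested, 5 were higher and 5 lower in 4-OHT DMSO (24.5% and 16.7% of all genes), with a median of 0.049. The higher genes include *Sytl4*, which was below 1 FPKM in every EtOH library and passed the filter only through the 4-OHT DMSO libraries. *Rab27b*, a GTPase of secretory granules, rose from 2.25 and 2.24 FPKM to 5.65 and 6.11 (log2 fold change 1.08, SE 0.10, limma adjusted p = 0.00129). *Slc4a4*, a bicarbonate transporter, fell from 13.5 and 16.2 FPKM to 6.99 and 6.36 (-1.04, SE 0.11, limma adjusted p = 0.00207), and *Tgm2*, a transglutaminase, dropped from 22.4 and 28.3 to 13.1 and 13.7 (-0.87, SE 0.13, limma adjusted p = 0.00575). By background, bicarbonate helps MUC2 unfold after release and transglutaminases cross-link mucus. None of these lists, from the other mucins to the secretion genes, had a member called by limma for Nec-1 in EtOH organoids. At an unadjusted p under 0.05 there were 0 of 1 other mucins, 4 of 17 goblet-enriched, 4 of 28 O-glycosylation and 1 of 15 secretion genes. Of all genes tested, 1689 of 12702 reached it.

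Markers of other epithelial cells also moved between 4-OHT DMSO and EtOH DMSO (beside 24.5% of all genes higher and 16.7% lower), and their part in the goblet cell values was not tested. Of 10 Paneth cell markers, 9 were higher and 0 lower with a median of 1.14, and their summed FPKM was 8434 to 9256 in EtOH DMSO and 22300 to 22490 in 4-OHT DMSO, with 16310 for 4-OHT Nec-1. *Mmp7* led them (log2 fold change 2.36, SE 0.09, limma adjusted p = 0.000256). *Itln1* (1.14, SE 0.11, limma adjusted p = 0.00158) is in this list and also among the goblet-enriched genes, and it is counted as higher in both. All 9 enteroendocrine markers tested were higher (median 0.90), led by *Gip* (1.48, SE 0.13, limma adjusted p = 0.00113). Of 10 enterocyte markers, 3 were higher and 5 lower (median -0.38). *Alpi* had the largest fall (-1.53, SE 0.16, limma adjusted p = 0.00177) and *Anpep* the largest rise (1.08, SE 0.15, limma adjusted p = 0.00426). Among 9 stem cell markers, 2 were higher and 4 lower (median -0.36). Their largest change was a rise, of *Cd44* (1.98, SE 0.09, limma adjusted p = 0.000321), and their largest fall was of *Smoc2* (-1.30, SE 0.085, limma adjusted p = 0.000573). Of 10 proliferation genes 1 was higher and 2 lower (median -0.084). Of 3 tuft cell markers tested, 1 was higher. The members' median of 1.00 lay between those of the enteroendocrine and the Paneth cell markers.

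**Figure D4:**
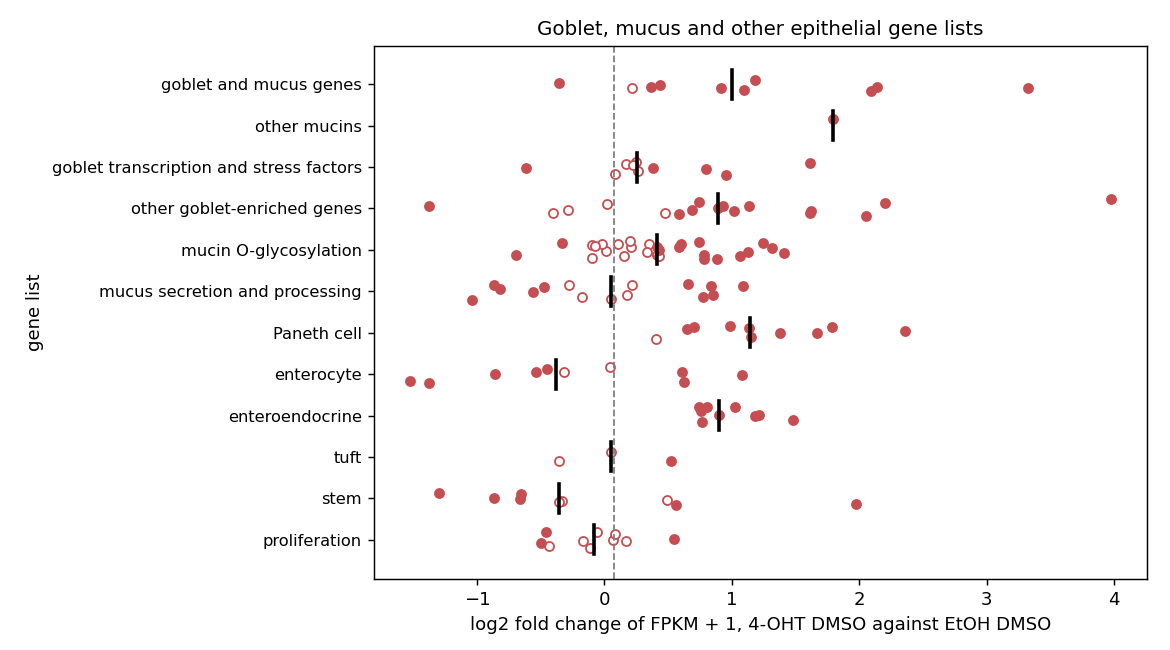
Log2 fold change of FPKM + 1 between 4-OHT DMSO and EtOH DMSO for each tested gene of 12 lists (filled points have a limma adjusted p under 0.05), with a black bar at each list's median and a dashed line at the median of all genes. The goblet and mucus, Paneth cell and enteroendocrine medians lie at 1.00, 1.14 and 0.90, and the enterocyte and stem medians at -0.38 and -0.36.

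To describe which genes followed *Muc2* most closely, Pearson's r of log2(FPKM + 1) was taken over the 7 libraries for the 7013 genes whose mean level was 5 FPKM or more. With 7 libraries in 4 groups such values mainly follow the difference between groups, so they are a description with no p. The closest genes were *Tlnrd1* (r = 0.997), *Otud7b* (0.997), *Gpa33* (0.996), *Atg9b* (0.996) and *Duoxa2* (0.996). *Gpa33*, the epithelial surface antigen A33, was at 63.0 and 70.8 FPKM in EtOH DMSO, 105 in 4-OHT Nec-1 and 123 and 125 in 4-OHT DMSO. Of the other members, *Muc3* (r = 0.977), *Clca1* (0.974), *Zg16* (0.960), *Spink4* (0.936) and *Agr2* (0.921) lay close to *Muc2*, *Tff3* (0.836), *Fcgbp* (0.796) and *Muc13* (0.749) less so, and *Klk1* ran against it (-0.886). The genes nearest to *Muc13* were *Arrdc1* (r = 0.994), *Elf3* (0.989), *Coq5* (0.988), *Frat2* (0.988) and *Pmaip1* (0.987). *Elf3*, an epithelial ETS factor, was at 113 and 112 FPKM in EtOH Nec-1, 158 and 164 in EtOH DMSO, 154 in 4-OHT Nec-1 and 196 and 218 in 4-OHT DMSO, so that it shared with *Muc13* the lowest values in EtOH Nec-1.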

How the data were processed

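Organoid RNA was extracted with a column kit and made into libraries with the NEBNext Ultra kit by the authors, who deposited FPKM, 1 value per Ensembl mouse gene in each of 7 libraries. The submitters' processing notes list HISAT2 2.1.0, StringTie 1.3.3b and the build mm10, without the role of each tool. The 2 CUT&Tag samples were not analysed here. The 2 further columns of 1 table repeated other libraries to within rounding, and 0 columns were left unmapped. FPKM are already scaled for length and library size, so counts, depth and counting intervals are unknown here.

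Groups and replicate numbers were taken from the library titles, and doses and days from the study's methods. The Nec-1 dose was not used. Identifiers were matched to symbols for 54723 of 54838 genes. limma 3.58.1 (R 4.3.3) with a mean-variance trend was fitted to log2(FPKM + 1), with a pseudocount of 1, over the 12702 genes that reached 1 FPKM in 2 or more libraries, with 1 mean per group over all 7 libraries (3 residual degrees of freedom), and p-values were adjusted by Benjamini-Hochberg over all genes (threshold 0.05). The 1 library of 4-OHT Nec-1 was compared by difference, with a threshold of 1 log2 unit beyond both libraries of the other group and a mean of at least 1 FPKM. The limma fit was tested on simulated data for 4-OHT DMSO against EtOH DMSO only. Tables and figures were made with Python 3.11.15, pandas 2.3.3, numpy 2.4.6 and matplotlib 3.10.9.

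The members and the gene lists were chosen with earlier results of these data known. The genes named are the 10 members, the 3 largest called changes of each related list, *Mettl3*, *Foxa3*, *Spdef*, *Atoh1* and the 5 genes most like *Muc2* and *Muc13*. From the marker lists of other epithelial cells, *Mmp7*, *Gip*, *Alpi*, *Anpep*, *Cd44* and *Smoc2* are named. Each is among the 3 largest called changes of its list, and the others of those 3 are not named. *Muc15*, *Muc16* and *Muc19* are named for their values of 0. The neighbour *Muc3a*, *Creb3l1*, *Xbp1*, *Scin*, *Bcas1*, *B4galnt2*, *Galnt10*, *Slc35a2*, *Itgam*, *Fer1l6*, *Fut2*, *Sytl4* and *Itln1* were added after their values were seen. Alternatives were other scalings, pseudocounts, filters and call rules, a replicate block, the 4 libraries of a comparison alone, and each library left out. Same-numbered libraries did not deviate together (correlations of -0.040 to 0.006), so the replicate number was not used as a block in the reported values.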

Additional observations from a re-analysis of the deposited data

Results flagged for a closer look

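In each of these 7 genes every library moved one way with Nec-1 in EtOH organoids and the other way in the library labelled 4-OHT Nec-1. They were picked for meeting this condition, and *Itln1* met it as well. The share of all genes that met it was not counted. Its parts are common: 10.5% of all genes lay wholly above and 39.1% wholly below DMSO in EtOH organoids. In the 4-OHT Nec-1 library, 24.5% lay above and 50.6% below both DMSO libraries. The difference between the 2 Nec-1 effects was not tested for any of them, and the second effect rests on 1 library. The values are log2 differences, and the difference is the 4-OHT effect minus the EtOH effect.

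For *Agr2* the Nec-1 effect was 0.41 in EtOH and -0.27 in 4-OHT organoids, a difference of -0.68. For *Clca1* it was 0.25 and -0.10, a difference of -0.35, and the second value turned to 0.02 with median centring. Among the related genes, *Rep15* had 0.27 and -0.29 (difference -0.56) and *Ang4* had 0.40 and -0.07 (difference -0.47). *Bcas1* had 0.34 and -1.23 (difference -1.56). *Mmp7*, a Paneth cell protease, had 0.33 and -0.68 (difference -1.02). *Tgm2* went the other way, with -0.25 and 0.07 (difference 0.33).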

How the results depend on the processing

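Between 4-OHT DMSO and EtOH DMSO, 8 of 10 members were higher, beside 24.5% of all genes tested. The calls that changed with 1 library left out are named below. An added fold of 1 log2 unit left 5 higher, 0 lower, and 854 higher and 465 lower of all genes. The 1 lower member, *Klk1*, was not called (0 members lower) without the trend, with pseudocounts of 0.1 and 0.25, with no filter, with the replicate block or with only the 4 libraries of the comparison, and leaving out 1 library gave 0 to 1. Its call was lost without either EtOH DMSO library, either EtOH Nec-1 library or the first 4-OHT DMSO library. *Tff3* lost its call under both scalings, with no filter, with only 4 libraries and without either EtOH DMSO library, either EtOH Nec-1 library or the second 4-OHT DMSO library. *Fcgbp* lost it in the same settings other than the second EtOH DMSO library, and also without the trend. *Muc13* was called without the first 4-OHT DMSO library (0.31, limma adjusted p = 0.0457). The cause was not tested. Median centring moved the split of all called genes from 3117 higher and 2120 lower to 2213 and 3187. With the replicate block *Tff3* and *Klk1* were not called (limma adjusted p = 0.0817 and 0.0623), which left 0 members lower, and 2788 of all genes were higher and 1909 lower. The block changed no other member's call.

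In EtOH organoids Nec-1 called 0 members in every setting, and 0 with each library left out. Of all genes, 22 higher and 6 lower became 66 and 21 with only 4 libraries, 6 and 2 with no filter, 60 and 19 without either library of 4-OHT DMSO, and 11 and 2, 12 and 2, 6 and 4, and 5 and 4 without each EtOH library in turn. Near-zero values changed sign. *Muc3* was 0.02 with median centring, 0.05 with upper quartile scaling and 0.14 and -0.30 without the first and the second EtOH Nec-1 library, and *Foxa3* was 0.03 and 0.05 with the scalings. Over the libraries left out, *Muc2* ran from -0.05 to 0.14, *Fcgbp* from -0.09 to 0.20, *Tff3* from -0.04 to 0.11, *Spink4* from -0.01 to 0.20, *Spdef* from -0.59 to 0.13 and *Atoh1* from -0.13 to 0.23, with the extremes set by the EtOH DMSO libraries. *Spdef* between 4-OHT and EtOH was 0.62 and -0.10 without the first and the second EtOH DMSO library. The cause was not tested.

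For the library labelled 4-OHT Nec-1 with no fold demanded, 1 member was above and 7 below both 4-OHT DMSO libraries, as 24.5% and 50.6% of all genes were. Against EtOH Nec-1, 9 members were above both libraries and 1 below, as 49.9% and 38.8% of all genes were. A fold of 0.5 log2 units gave 5 members above EtOH Nec-1. Of the 11746 genes compared, 1835 lay above and 1035 below both EtOH Nec-1 libraries by that fold. Leaving out 1 library of the other group gave 0 members higher and 1 lower against 4-OHT DMSO, and 3 higher and 0 lower against EtOH Nec-1. Of all genes against 4-OHT DMSO, 92 higher and 146 lower became 246 and 526 without its first library and 180 and 241 without its second. Of all genes against EtOH Nec-1, 498 higher and 228 lower became 643 and 307 without its first library. Without its second library they became 650 and 296. Depth cannot be given for FPKM, and low genes carry the most uncertainty.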
